A study of Mus musculus with 18 samples.

Results

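The DN1 fraction of mouse NPM-ALK lymphomas was compared with healthy LSK cells, the stem and progenitor compartment of bone marrow that is lineage-negative, SCA1-positive and KIT-positive. The samples were taken by their labels, 3 DN1 arrays and 3 LSK arrays, hence 6 of the 18 arrays of the series. The other 12 arrays, 3 each of the CLP, DN2, DN3 and DN4 fractions of the same kind of lymphoma, served to show where DN1 parted from the rest of the tumour. Lymphoma cells came from sublethally irradiated mice with an Lck-Cre transgene that had been given bone marrow infected with a retrovirus, so that NPM-ALK, a fusion kinase of anaplastic large cell lymphoma, was made in early T cells. The Lck promoter is active in developing T cells, and sublethal irradiation leaves blood cells of the host alive. Thymic lymphomas were harvested when the mice were moribund, and the design text speaks of 3 lymphomas for all 15 lymphoma arrays without tying array numbers to tumours. LSK cells came from bone marrow of wildtype mice of 18 months without a transgene in their labels. All cells were sorted after staining of lineage markers, SCA1, KIT, IL7Rα, CD44, CD25, CD8 and CD4. The free-text description fields of the arrays go against their titles: those of the DN1 arrays speak of an aged wild type mouse given 4 Gy, and those of the LSK arrays of a NIPA knockout, with 4 Gy for LSK replicate 3. Of the other lymphoma arrays, those of DN2, DN3 and CLP replicates 1 and 2 also name 4 Gy in this field. No dose stands there for DN4 and CLP replicate 3. Titles, source names and characteristics were followed. No age in months is given for the lymphoma mice. Tissue, genotype and irradiation differ between the groups together and cannot be told apart from the change from LSK to DN1. The same holds for age, which may differ. It also holds for sex, since Xist RNA was above background in part of the LSK arrays and in no DN1 array. The labels do not say that arrays of a group came from separate animals, so p-values measure the spread between these samples, which may be technical.

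DN1, DN2, DN3 and DN4 are the consecutive stages that thymocytes pass before they carry CD4 or CD8. In a healthy thymus, DN1 cells (CD44-positive, CD25-negative) keep part of a progenitor programme, Notch1 signals then switch on T cell genes and CD25, and the pre-T cell receptor drives proliferation from DN3 on. Cells answer amino acid shortage, unfolded protein, heat, oxidants, DNA damage and sudden growth signals with separate gene programmes, which also respond to handling such as tissue dissociation and sorting. Immediate early genes such as Fos, Jun and Egr1 are transcribed within minutes of a signal, and ATF4 carries the response to amino acid shortage and other stresses.

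The values are log2 signals of Affymetrix probe sets after RMA, and 1 unit is a doubling. Each gene is given by its brightest probe set, which left 22180 genes. A signal at or below 5.71 was taken as background. Olfactory receptors, largely silent in blood cells, set that level: 95% of their probe sets lay at or below it on every array. A difference from a group at background is not an exact fold. Differences were tested with limma, with Benjamini-Hochberg adjustment over all genes and an adjusted p under 0.05 as threshold. In bulk samples, fewer cells of a type and less RNA per cell cannot be told apart.

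The labels were first set against marker genes. Cd3g, a chain of the T cell receptor complex, stood at 12.11, 11.98 and 11.88 in the DN1 arrays and at 4.67, 4.97 and 4.26 in the LSK arrays. The DN1 arrays were thus T lineage by this gene, and LSK was at background. Il2ra, which encodes CD25, was at 8.92, 8.88 and 9.32 in DN1 against 11.81, 11.86 and 11.76 in DN2, so the fractions separated on the marker that divides them. Its level in LSK, 10.15, 9.36 and 9.33, was above background too. Cd44, by which DN1 is gated, was higher in DN1 (6.66, 6.38 and 6.88) than in the 12 other lymphoma arrays (lowest 4.54, median 4.78, highest 6.15). LSK arrays lay above both at 7.28, 7.57 and 7.23. Of the co-receptors by which double-negative cells are defined, Cd8a was at background in DN1 (5.04), and Cd4 (6.63) and Cd8b1 (8.81) were above it. RNA of Cd8b1 was thus present in a fraction named for its lack of CD8, and the 12 other lymphoma arrays shared it at a median of 8.48. Cd34 and Meis1, markers of stem cells, had mean levels of 11.10 and 10.37 in LSK and of 5.24 and 4.51 in DN1, where both were at background. Alk, whose kinase part is in the fusion, was at background in both groups (5.08 in DN1 and 4.41 in LSK). Its probe set therefore gave no measure of NPM-ALK. The LSK arrays differed in sex-linked RNA: Xist stood at 3.55, 10.74 and 10.00, and LSK replicate 2 also carried the Y-linked Eif2s3y at 7.43. DN1 arrays had Xist at background.

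DN1 differed from LSK in 4378 genes, 19.7% of all tested, of which 1652 (7.45%) were higher and 2726 (12.3%) lower. By at least 1 unit, 692 (3.12%) were higher and 1247 (5.62%) lower. The median difference of all genes was 0.02. DN1 differed from the mean of the other 4 fractions in 1528 genes (6.89%), 690 higher (3.11%) and 838 lower (3.78%), with a median over all genes of -0.03. By at least 1 unit, 208 (0.938%) were higher and 163 (0.735%) lower. In this second test LSK cancels, so it asks whether the step from LSK differs between DN1 and the other fractions. All comparisons with LSK share the same 3 LSK arrays, and their values are given side by side without a measure of likeness. DN2 was the nearest fraction: 300 genes (1.35%) differed between DN1 and DN2, against 1726 (7.78%) for CLP, 1485 (6.70%) for DN3 and 1245 (5.61%) for DN4. Arrays of DN1 correlated at 0.982 to 0.990 among themselves and at 0.922 to 0.936 with LSK arrays over all genes.

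**Figure D1:**
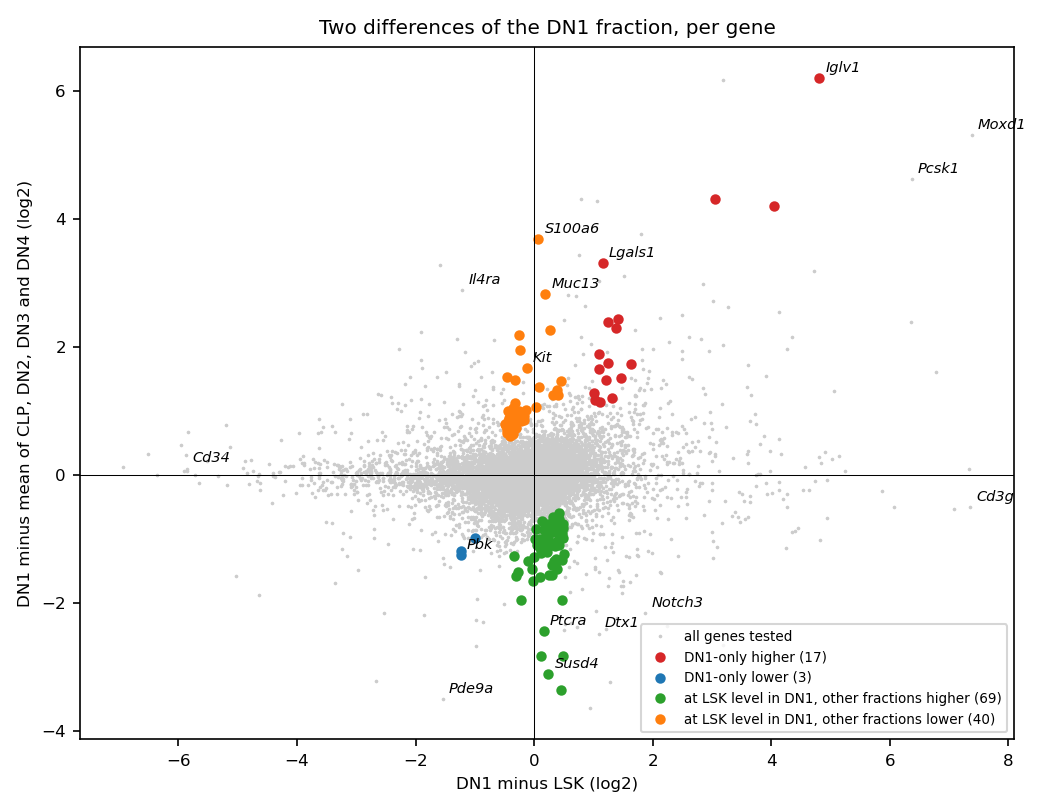
Each point is a gene, with DN1 minus LSK on the x axis and DN1 minus the mean of CLP, DN2, DN3 and DN4 on the y axis, both as differences of log2 signal. Red and blue points are the 17 genes higher and 3 lower in DN1 alone, and green and orange points are the 69 and 40 genes at the LSK level in DN1 that the other fractions held higher or lower.

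Stress genes were more often lower than higher in DN1 against LSK. Of 144 measured genes in 6 stress lists, 67 fell, 15 rose and 62 did not pass the test. Against the other fractions 20 of the 144 were higher in DN1 and 5 lower. Over all genes tested, 12.3% were lower and 7.45% higher than in LSK. Against the other fractions 3.11% of all genes were higher and 3.78% lower. Having fewer calls against the rest of the tumour than against LSK was thus not particular to stress genes. The shares of all genes include many silent ones: 12536 of 22180 genes were above background in some group. In the stress lists this held for 21 of 24 p53 targets at the least and 23 of 23 unfolded protein response genes at the most. Markers of other blood cells moved in the comparison with LSK as well. Of 20 granulocyte and mast cell markers 10 fell and 1 rose, of 19 macrophage and monocyte markers 7 fell and 3 rose, and of 10 erythroid and megakaryocyte markers 6 fell and 1 rose. The mean level of these 3 lists per array was 6.32 to 7.22, 6.39 to 6.46 and 6.94 to 7.22 in LSK and 5.04 to 5.47, 6.04 to 6.08 and 5.35 to 5.57 in DN1, where 14, 11 and 7 of the markers were at background, Mpo and Lyz2 among them. Of 13 dendritic cell markers 6 fell and 1 rose, and of 20 NK and cytotoxic markers 7 fell and 3 rose. The part of these markers in the stress genes was not tested.

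Genes under ATF4 had the lowest median of the 6 stress lists. Of 28 measured genes in this list 18 were lower in DN1 than in LSK (12.3% of all genes) and 1, Ddit4, higher (7.45%). The list median was -0.85. Asns, the asparagine synthetase, stood at 9.65, 9.49 and 9.77 in LSK and at 5.39, 5.54 and 5.77 in DN1. It fell by 4.07 (SE 0.152, adjusted p = 1.85e-08). Slc7a11, the cystine importer, went from 9.29, 8.17 and 7.75 to 3.48, 3.71 and 4.01, and Vldlr, a lipoprotein receptor induced by ATF4, from 8.28, 8.97 and 9.58 to 4.86, 5.06 and 5.17. In all 3 genes the groups did not overlap, as was so for 19 of the 28 genes in the lower direction (18.8% of all genes), and DN1 lay at background. Pck2 (-2.04), Gpt2 (-2.02), Eif4ebp1 (-1.82), Nupr1 (-1.66), Chac1 (-1.44), Aldh18a1 (-1.35) and Psat1 (-1.12), enzymes and regulators of amino acid and stress metabolism, were called as well. Atf4 itself fell by 0.86 (adjusted p = 0.0012). The other fractions had like counts, with the same LSK arrays on the other side: the counts of lower genes were 18 in DN2, 19 in DN3, 19 in DN4 and 14 in CLP, where 14.0%, 13.1%, 14.9% and 11.2% of all genes were lower. Against the mean of the other fractions only Phgdh, the first enzyme of serine synthesis, was called in this list, lower by 0.65. Without DN1 replicate 3 that difference was -0.39, with an adjusted p of 0.174.

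ATF4 pairs with C/EBP proteins on a composite motif, and RefSeq promoters of the 18 genes that fell were searched for it. The letters TGATGNAA were sought on both strands in the 250 bases before each start site of the GRCm38.p6 annotation, with N for any base. Promoters were in the table for 16 of the genes, 18 promoters in all, and 6 promoters (33.3%) held the letters, against 608 of 20611 promoters of tested genes (2.95%). The 6 stretches are shown because they hold every match in the list, with the matched letters and their reverse complement in capitals, read along the strand of the gene.
Asns (chr6:7693215-7693242, minus strand): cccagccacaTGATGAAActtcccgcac
Chac1 (chr2:119351039-119351066, plus strand): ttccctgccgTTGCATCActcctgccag
Nupr1 (chr7:126625563-126625590, minus strand): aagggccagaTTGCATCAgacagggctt
Pck2 (chr14:55540153-55540180, plus strand): gccttcaaagTTACATCAgtatcttaca
Slc7a11 (chr3:50443643-50443689, minus strand): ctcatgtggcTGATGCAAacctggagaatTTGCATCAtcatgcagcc
Vldlr (chr19:27216810-27216837, plus strand): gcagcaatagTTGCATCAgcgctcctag
The 3 genes with the largest fall, Asns, Slc7a11 and Vldlr, were among the 6, and Slc7a11 held the letters at 2 places. A match of letters describes the sequence and is no measure of binding. The list was drawn up as genes under ATF4, so a high share of its motif cannot be read as a result about the fall in DN1. List genes that did not fall were not searched as a group of their own.

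Chaperones and targets of NRF2, a transcription factor of the response to oxidants, were more often lower than higher in DN1 as well. Hspa1a, the inducible HSP70, stood at 9.01, 7.60 and 8.43 in LSK and at 5.05, 5.19 and 6.34 in DN1. It fell by 2.82 (SE 0.376, adjusted p = 0.000266), together with its neighbouring copy Hspa1b (-2.16), whose near-identical transcript the probes may share. Of 18 heat shock genes 8 fell (12.3% of all genes), among them Hsph1 (-1.55) and Hspa4l (-1.13). The HSP40 Dnajb1 was the 1 that rose (7.45% of all genes), by 0.77. Against the other fractions only Hspa1a was called in that list, 0.95 higher in DN1, with both sides at background. This rested on DN1 replicate 3, without which the difference was 0.54 (adjusted p = 0.252). Hmox1, heme oxygenase, went from 9.52, 8.03 and 8.92 in LSK to 5.48, 5.64 and 5.55 in DN1. Me1 (-4.24), Gclm (-3.49) and Nqo1 (-1.73), which supply NADPH, glutathione and quinone reduction, were lower too. Of 24 oxidative stress genes 11 fell (12.3% of all genes) and 2 rose (7.45%). The 2 that rose were Gsr, glutathione reductase, by 1.40 and Txnip, the thioredoxin inhibitor, by 0.65. The call of Txnip was lost without LSK replicate 3 (0.43, adjusted p = 0.104) and without any 1 DN1 array.

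Genes of the unfolded protein response were more often lower than higher in DN1 against LSK, and p53 targets went both ways. Of 23 unfolded protein response genes 12 were lower in DN1 than in LSK (12.3% of all genes). Edem1 was the 1 called higher (7.45% of all genes), by 1.00. Ern1, the sensor IRE1, stood at 10.83, 11.44 and 10.57 in LSK and at 7.48, 7.94 and 7.53 in DN1, with no overlap. Xbp1, the transcription factor spliced by IRE1, held an intermediate level: 11.58, 11.07 and 11.30 in LSK, 10.08, 10.28 and 9.92 in DN1, and 8.79 to 9.62 in the 12 other lymphoma arrays (median 9.04). DN1 lay below LSK by 1.22 (adjusted p = 0.000331) and above the other fractions by 0.95 (adjusted p = 0.000103), and its arrays overlapped with neither. Among 24 p53 targets 5 rose (7.45% of all genes) and 8 fell (12.3%). Fas, the death receptor, went from 5.87, 5.63 and 5.93 to 8.95, 8.23 and 8.26. It was also 1.51 above the other fractions (adjusted p = 3.44e-05), whose highest array stood at 7.92. Trp53inp1, an inducer of autophagy and cell death, was higher by 2.33 against LSK and by 0.67 against the fractions. Cdkn1a, the cell cycle inhibitor p21, fell by 2.78 (10.92 ± 0.46 in LSK and 8.14 ± 0.27 in DN1, SD, n = 3), close to the mean of 7.95 in the other fractions.

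Immediate early genes went both ways and were the stress list in which DN1 stood apart most often from the rest of the lymphoma. Of 31 measured genes 7 were higher (7.45% of all genes) and 12 lower (12.3%) in DN1 than in LSK. Against the other fractions 12 were higher (3.11% of all genes) and 3 lower (3.78%), with a list median of 0.31. Fos stood at 6.62, 6.05 and 6.47 in LSK, at 8.41, 8.29 and 8.08 in DN1 and at 7.19 to 7.97 in the other lymphoma arrays (median 7.52). DN1 lay above both without overlap, by 1.88 (adjusted p = 1.61e-05) and 0.73 (adjusted p = 0.000767). Jun, the partner of FOS in AP-1, was at 11.30, 11.65 and 10.93 in DN1 against 9.21, 8.79 and 9.15 in LSK. The highest DN2 array, at 11.20, overlapped with DN1. Its difference from the other fractions, 0.73, missed the threshold without DN1 replicate 2 (0.56, adjusted p = 0.0958).

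Other members of the list fell from the LSK level. Rgs1, a brake on chemokine receptors, went from 7.73, 7.87 and 9.11 in LSK to 3.71, 3.46 and 3.67 in DN1, with all lymphoma fractions at background. Nr4a1, an orphan nuclear receptor, fell by 2.13 and Egr1, a zinc finger factor, by 1.53. Dusp5, a phosphatase of ERK, stood at 9.62, 9.46 and 9.55 in LSK and at 6.09, 6.29 and 6.91 in DN1. It fell by 3.11 and was 0.96 below the other fractions (adjusted p = 0.000306), whose arrays ran from 6.67 to 7.80. Dusp6 (-0.91) and Dusp2 (-0.61), phosphatases of the same kinase family, were also below the other fractions. With the mean of probe sets in place of the brightest, Dusp6 missed the threshold (-0.65, adjusted p = 0.0877). Fosl2, an AP-1 subunit, took the opposite place: 9.03, 9.01 and 9.51 in LSK, 8.17, 8.67 and 8.02 in DN1 and at most 7.43 elsewhere. It was thus lower than in LSK by 0.90 and higher than in the other fractions by 1.53 (adjusted p = 2.52e-06).

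**Figure D2:**
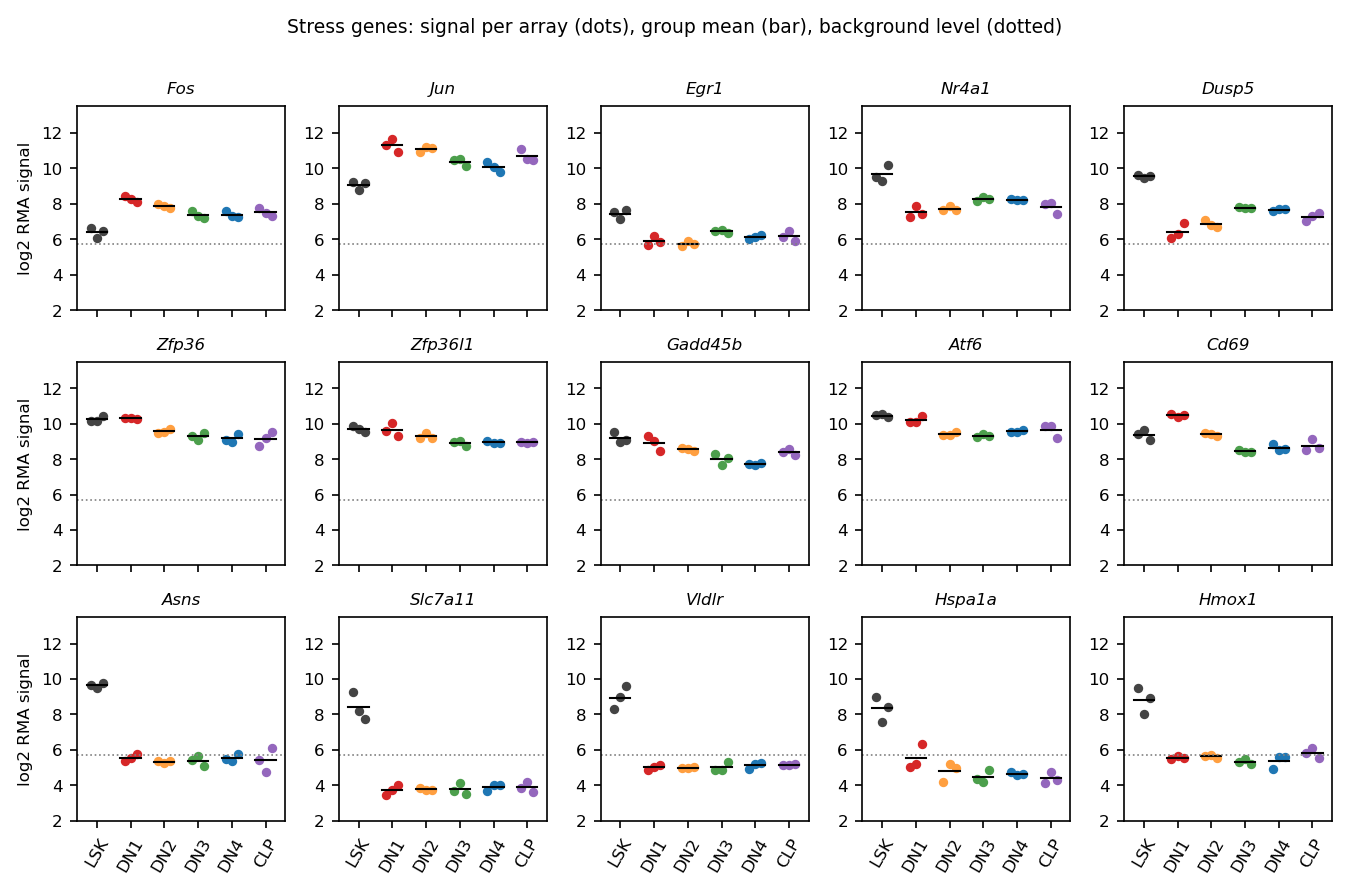
Log2 signal of 15 stress genes in each of the 18 arrays by group, with dots for arrays, a bar for the group mean and a dotted line for background at 5.71. Asns, Slc7a11, Vldlr, Hspa1a and Hmox1 drop from LSK to every lymphoma fraction, and the DN1 dots of Zfp36 lie among the LSK dots.

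A smaller group of stress genes did not pass the test against LSK in DN1 while other fractions were called below LSK. No stress gene met the full rule, which asks DN1 to lie within 0.5 of LSK and 3 other fractions to leave it by at least 1. With both limits on size left out and 2 called fractions enough, 6 genes remained. These changes were made after the full rule had given none. All 6 were lower in the other fractions: Zfp36, Zfp36l1, Gadd45b, Atf6, Fth1 and Mt1. Their p-values chose them, and the values below are a description. Zfp36, which encodes tristetraprolin and destabilises cytokine messages, stood at 10.34, 10.34 and 10.25 in DN1 and at 10.15, 10.15 and 10.43 in LSK, and the other lymphoma arrays ran from 8.72 to 9.71 (median 9.36). DN1 minus LSK was 0.07 with a 95% interval of -0.24 to 0.38. DN1 and LSK overlapped, and neither reached the other fractions.

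Atf6, a membrane-bound sensor of unfolded protein, had DN1 arrays at 10.09, 10.11 and 10.41, LSK arrays at 10.50, 10.52 and 10.35 and other lymphoma arrays from 9.22 to 9.88. Its DN1 minus LSK interval ran from -0.58 to 0.06. Zfp36l1, a paralogue of Zfp36 that restrains cell cycle entry of early lymphocytes, stood at 9.59, 10.01 and 9.27 in DN1 and at 9.87, 9.72 and 9.52 in LSK, with others from 8.75 to 9.45. One DN1 array overlapped with the other fractions, and the difference from them, 0.60, was 0.41 without DN1 replicate 2 (adjusted p = 0.0754). Gadd45b, a stress-induced activator of p38, ranged from 8.45 to 9.28 in DN1 and from 8.99 to 9.52 in LSK, with a highest other array of 8.62. Its difference from the other fractions, 0.74, was 0.56 without DN1 replicate 1 (adjusted p = 0.0564). Fth1, the ferritin heavy chain, and Mt1, a metallothionein, were lower than LSK in 2 other fractions only, and both lost the call against the fractions without DN1 replicate 1 (0.36, adjusted p = 0.107, and 0.43, adjusted p = 0.0714). Mt1 also lost it without DN1 replicate 2 or 3.

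Outside the stress lists, 109 genes were at the LSK level in DN1 under the full rule, with DN1 within 0.5 of LSK. The other fractions held 40 of them lower (0.180% of genes tested) and 69 higher (0.311%). The 95% interval of DN1 minus LSK lay within 1 unit of 0 for 38 and 65 of these. DN2 was itself within 0.5 of LSK for 11 and 20 of them, and for these genes it was CLP, DN3 and DN4 that had left the LSK level. The direct difference of DN1 from DN2 passed the test for 6 and 16. Ptger4 (-0.49) and Ifi203-ps (0.50) lay just inside the limit of 0.5, and Slco4a1 (-0.5023) and Carmil2 (0.5036) just outside.

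Among genes kept at the LSK level and lower elsewhere, the calcium-binding protein gene S100a6 had the largest difference. It stood at 10.35, 9.55 and 9.25 in DN1, at 9.69, 9.51 and 9.74 in LSK and at 4.71 to 7.87 in the other lymphoma arrays (median 5.58), where DN3 and DN4 were at background. Muc13, a membrane mucin, was at 10.98, 11.03 and 10.95 in DN1, 11.05, 10.82 and 10.55 in LSK and 6.55 to 10.46 elsewhere. The DN2 mean of Muc13 was 10.33, against 6.86 in DN3, 6.90 in DN4 and 8.53 in CLP. Il18, a cytokine released through the inflammasome, stood at 7.25, 6.64 and 6.74 in DN1 and at 6.48, 6.13 and 7.19 in LSK, and all 12 other arrays were at or below 5.18. The cell death gene Dap followed the pattern of Muc13, with 8.04, 8.13 and 8.0 in DN1, 8.65, 8.26 and 8.03 in LSK, 7.68 on average in DN2 and background in DN3 and DN4. Kit, the stem cell factor receptor and a sort marker, was at 10.61, 10.90 and 10.79 in DN1 and at 10.69, 10.79 and 11.21 in LSK. DN2 was at that level too (10.65, 10.79 and 10.59), and DN3, DN4 and CLP had means of 8.06, 8.20 and 9.43. Since the gate used KIT, its level is set in part by the sort.

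**Figure D3:**
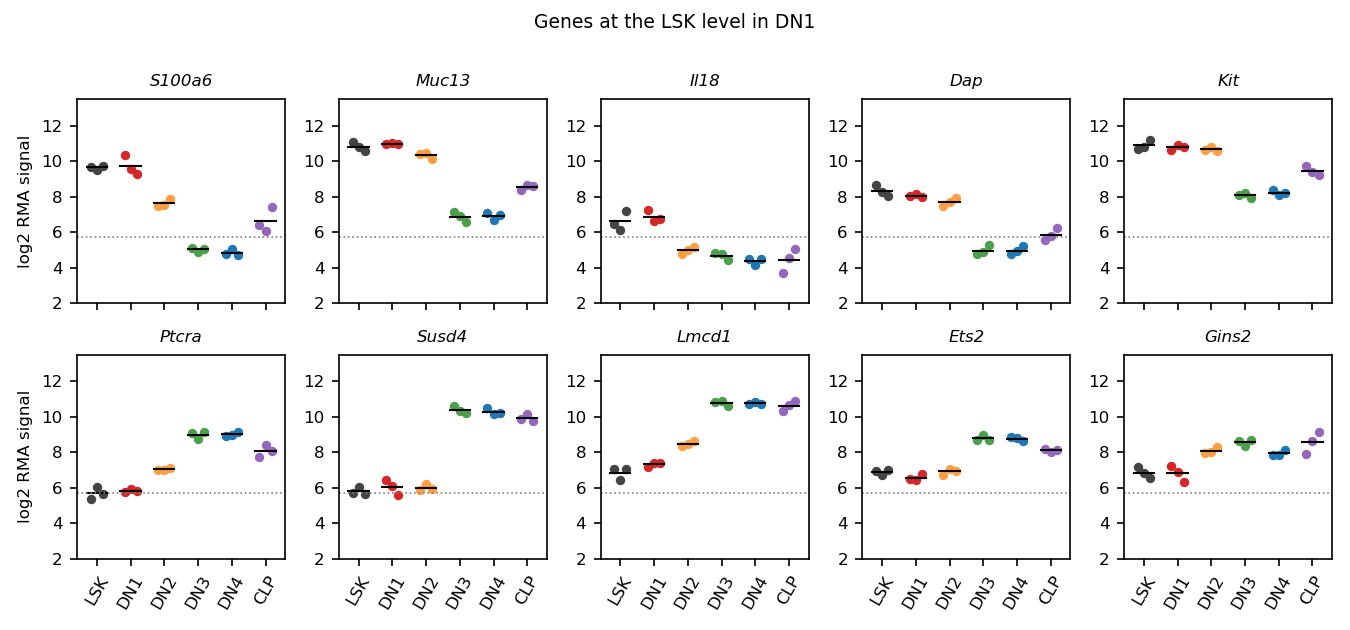
Log2 signal of 10 genes in which DN1 was within 0.5 of LSK, in each of the 18 arrays by group, with a bar for the mean and a dotted line for background at 5.71. S100a6, Muc13, Il18, Dap and Kit drop in DN3 and DN4, and Ptcra, Susd4, Lmcd1, Ets2 and Gins2 climb there, with DN2 between or beside DN1.

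Among genes at the LSK level in DN1 and higher elsewhere was Ptcra, a gene of the pre-T cell receptor stage. Ptcra, the pre-T cell receptor alpha chain, was at 5.76, 5.94 and 5.83 in DN1, at 5.37, 6.04 and 5.64 in LSK and at 6.98 to 9.14 in the other lymphoma arrays (median 8.57). DN1 minus LSK was 0.16 (95% interval -0.23 to 0.55), and DN1 lay 1 unit or more below the lowest other array. Lmcd1, a LIM protein that restrains GATA factors, stood at 7.18, 7.41 and 7.41 in DN1, at 7.03, 6.46 and 7.03 in LSK and at 8.34 to 10.90 elsewhere. DN1 was above LSK without overlap for Lmcd1, with an adjusted p of 0.0809. Susd4, a complement inhibitor, and Ets2, an ETS factor, were within 0.5 of LSK in DN2 as well. The mean of Susd4 was 6.04 in DN1 and 6.0 in DN2, against 10.37 in DN3 and 9.91 in CLP. Ets2 had means of 6.57 and 6.92 in the first pair and of 8.79 and 8.10 in the second. Atp8a2, a lipid flippase, was 2.83 below the other fractions in DN1 and 0.12 above LSK.

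Notch genes were lower in DN1 than in the other fractions. Of 13 measured Notch pathway genes 7 were below the other fractions (3.78% of all genes) and none was above (3.11%). The list median was -1.17 against -0.03 for all genes. Against LSK 5 were higher (7.45% of all genes) and 2 lower (12.3%), with a median of 0.16. Notch3 stood at 5.34, 5.88 and 5.95 in LSK, 7.32, 7.99 and 7.46 in DN1 and 9.04 to 10.42 elsewhere, so that DN1 was 1.87 above LSK (adjusted p = 7.99e-05) and 2.16 below the other fractions (adjusted p = 1.13e-07). Dtx1, a ubiquitin ligase induced by Notch, was at 6.0, 5.94 and 6.45 in LSK, 7.04, 7.18 and 7.42 in DN1 and 8.59 to 10.43 elsewhere. Both genes were in steps, with DN1 apart from LSK and from all 12 other arrays. Heyl, a target of Notch3, and Notch1 itself had the same order, with DN1 1.5 and 1.03 above LSK and 1.73 and 1.47 below the other fractions. Nrarp, a feedback inhibitor of Notch, was 0.51 below LSK in DN1 (adjusted p = 0.158) and 2.02 below the other fractions (adjusted p = 1.18e-06). Against DN2 alone 4 of the 13 were lower in DN1 (0.708% of all genes), Ptcra, Il2ra, Dtx1 and Notch3. Il2ra belongs to the gate.

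DNA replication genes were lower in DN1 than in the other fractions, and few passed the test against LSK. Of 25 measured cell cycle genes 16 were lower in DN1 than in the other fractions (3.78% of all genes) and none was higher (3.11%). The median was -0.62, and 12 of the 25 had all DN1 arrays below all 12 others (2.08% of all genes). Against LSK 1 was higher (7.45% of all genes), 2 were lower (12.3%) and the median was 0.02. The same 25 genes gave 13 higher and 0 lower in CLP against LSK, 20 and 0 in DN2, 16 and 0 in DN3 and 11 and 0 in DN4, where 6.54%, 11.4%, 11.4% and 11.8% of all genes were higher. The counts of lower genes in direct tests of DN1 were 13 against DN2 (0.708% of all genes) and 16 against CLP (3.53%). They were 15 against DN3 (3.92%) and 6 against DN4 (2.82%).

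Subunits of the MCM helicase, which unwinds DNA at replication origins, led this list. Mcm5 stood at 9.33, 9.61 and 8.99 in DN1, at 10.30, 9.98 and 9.51 in LSK and at 10.09 to 10.88 in the other lymphoma arrays (median 10.47). DN1 lay 1.19 below the other fractions (SE 0.137, adjusted p = 1.42e-05), and 1 DN1 array overlapped with LSK. Mcm7 was at 8.68, 9.20 and 8.89 in DN1, at 9.12, 9.06 and 8.81 in LSK and at 9.55 to 10.24 elsewhere, and Mcm6 was at 9.87, 9.80 and 10.09, at 9.97, 9.86 and 9.88 and at 10.35 to 10.73. In both genes DN1 and LSK overlapped and the other fractions lay above them. Mcm2, Mcm3 and Mcm4 were lower in DN1 by 0.85, 0.79 and 0.65. The nucleotide enzymes Rrm1 (-0.83), Rrm2 (-0.82) and Tyms (-0.79) and the polymerase clamp Pcna (-0.63) were lower as well. Rrm2 was the 1 cell cycle gene that met the rule for the LSK level in DN1. Gins2, a partner of MCM in the replication fork, met it too and was singled out after its values were seen: 7.24, 6.90 and 6.32 in DN1, 7.20, 6.81 and 6.56 in LSK and 7.84 to 9.12 elsewhere.

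Genes of mitosis did not all share the pattern. Cdk1, the mitotic kinase, stood at 9.11, 8.83 and 8.21 in DN1 and at 9.84, 9.45 and 9.22 in LSK, so DN1 was 0.79 below LSK (adjusted p = 0.0358) and 0.97 below the other fractions (adjusted p = 0.00201). Ccnb2, cyclin B2, was at 9.67, 9.55 and 9.57 in DN1, 8.93, 8.60 and 8.62 in LSK and 8.61 to 9.85 elsewhere. It was 0.88 above LSK (adjusted p = 0.00108) and 0.19 above the other fractions (adjusted p = 0.701). Aurkb and Bub1, kinases of the spindle checkpoint, were 0.84 and 0.57 below the other fractions.

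E2F factors drive replication genes through a short motif, and the 16 genes that were lower than in the other fractions were searched for TTTCCCGC or TTTGGCGC on both strands of the same promoter windows. Promoters were in the table for 14 of them, 15 promoters in all, of which 3 (20.0%) held the letters, against 356 of 20611 (1.73%). They belonged to 3 MCM subunits and are shown as the matches behind that share, with the motif or its reverse complement in capitals, along the strand of the gene in GRCm38.p6.
Mcm5 (chr8:75109350-75109377, plus strand): aagaactttcGCGCCAAAacgtccagcc
Mcm6 (chr1:128359735-128359825, minus strand): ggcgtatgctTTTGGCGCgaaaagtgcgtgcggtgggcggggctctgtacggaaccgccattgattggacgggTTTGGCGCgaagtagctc
Mcm7 (chr5:138172031-138172058, minus strand): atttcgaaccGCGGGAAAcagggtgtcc
Mcm6 held the letters at 2 places. The list was drawn up as cell cycle genes, so this share cannot be read as a result about their lower level in DN1. List genes that were not lower were not searched as a group of their own. The 12 immediate early genes higher in DN1 than in the other fractions were searched for the letters TGACGTCA and TGANTCA, the motifs of CREB and AP-1. The first was in 0 and the second in 1 of their 11 promoters, that of Zfp36l1, against 2.00% and 6.37% of all promoters. None of the motifs searched holds another.

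**Figure D4:**
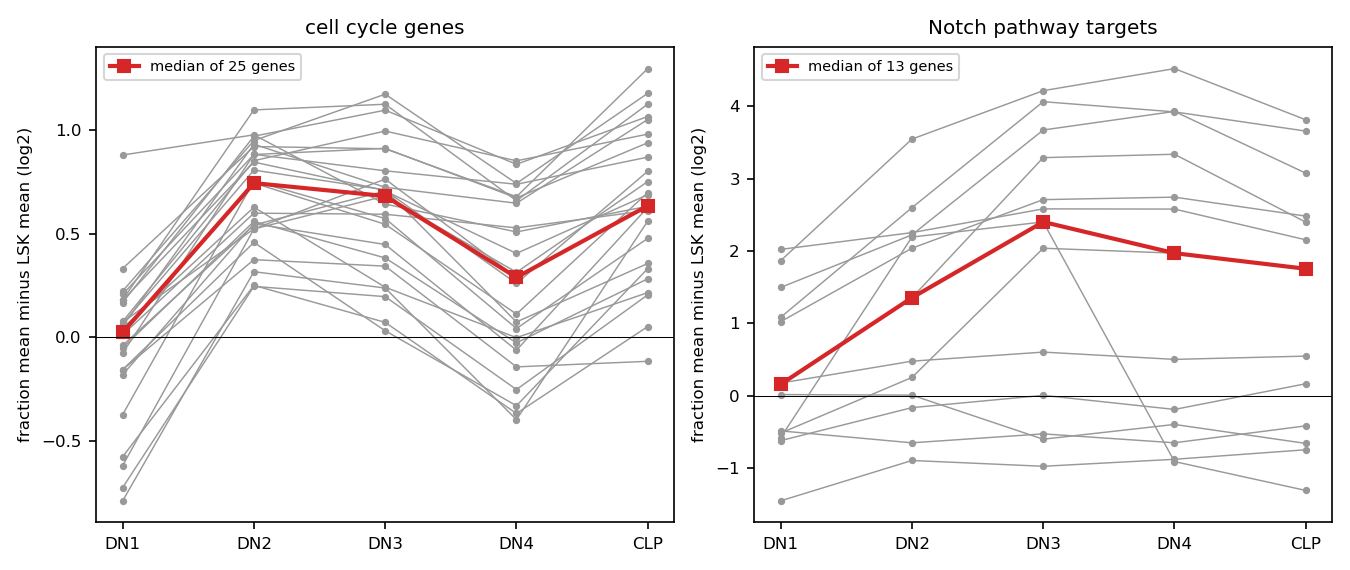
Difference in log2 signal between the mean of each lymphoma fraction and the LSK mean for 25 cell cycle genes and 13 Notch pathway genes. A grey line with dots stands for each gene and a red line with squares for the median. The cell cycle median of DN1 is 0.02 and that of the Notch genes 0.16, below the other 4 fractions in both lists.

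Few genes changed from LSK in a direction that no other fraction shared with DN1. The rule asked for a difference from LSK of at least 1 that passed the test, no other fraction called in that direction and a difference from the mean of the others in the same direction. It found 17 higher genes (0.0766% of those tested) and 3 lower (0.0135%). These tests chose the genes, so the values are a description. Slc49a4 (1.01) lay just inside the limit and Snord111 (0.99) just outside. On the lower side 2810408B13Rik (-1.0) was just inside and Ttyh2 (-0.99) just outside. Of the 17, 14 were also called against each other fraction singly, and 15 had all DN1 arrays above the 12 others. For 11 of the 17 some other fraction was called below LSK, on the opposite side from DN1. Among these, Iglv1 and Il18r1 had LSK and the other fractions at background, where a fall from LSK is not told apart from background.

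Lgals1 and Pdgfc encode secreted factors, and P2ry2, Il21r and Il18r1 receptors. Lgals1, the secreted lectin galectin-1, stood at 10.92, 10.20 and 10.45 in DN1, at 9.67, 9.72 and 8.71 in LSK and at 5.69 to 9.37 in the other arrays (median 6.82). Pdgfc, a platelet-derived growth factor, was at 8.55, 8.84 and 8.95 in DN1, 7.01, 7.12 and 7.98 in LSK and 4.86 to 7.26 elsewhere. In both genes DN1 was above LSK, and CLP, DN3 and DN4 were below it. P2ry2, a receptor for extracellular ATP and UTP, had DN1 arrays at 8.17, 8.61 and 7.74, LSK arrays at 7.37, 6.89 and 6.51 and a highest other array of 7.24. Il21r, the receptor of interleukin 21, stood at 8.50, 8.55 and 8.51 in DN1, at 7.16, 6.92 and 7.31 in LSK and at 5.35 to 7.66 elsewhere. Il18r1, a chain of the interleukin 18 receptor, was above background in DN1 (6.69, 6.69 and 6.84) and had means at background in LSK and every other fraction. Its ligand gene Il18 was the one kept at the LSK level in DN1.

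The rest held Cd69 and Gadd45g, both inducible genes. Cd69, an early activation antigen, stood at 10.54, 10.40 and 10.47 in DN1, 9.42, 9.66 and 9.07 in LSK and 8.39 to 9.45 elsewhere, and was the 1 immediate early gene of the set. Gadd45g, a stress-induced activator of p38 and JNK, was at 9.42, 9.43 and 7.82 in DN1, 7.35, 6.92 and 7.48 in LSK and 6.40 to 7.80 elsewhere. DN1 replicate 3 of Gadd45g lay below the other DN1 arrays and just above the other groups. Scd1, a fatty acid desaturase, had means of 6.71 in DN1 and 6.07 in DN2, and its arrays overlapped between these fractions. Cpeb4, a regulator of polyadenylation, Fbxo33, an F-box protein, Slc49a4, a membrane transporter, and Crybg1 had DN1 levels 1.01 to 1.47 above LSK. Olfr1034 and Mir5104 completed the set, the latter at background in all groups.

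On the lower side stood Pbk, a mitotic kinase, at 7.86, 7.72 and 7.95 in DN1, 9.25, 9.02 and 8.97 in LSK and 8.27 to 9.87 elsewhere. Megf9, a membrane protein, was at 6.09, 6.69 and 6.79 in DN1, 7.94, 7.60 and 7.75 in LSK and 6.92 to 8.07 elsewhere. DN1 arrays of both genes were below all other 15 arrays. The clone-named 2810408B13Rik was at background in DN1 and LSK.

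**Figure D5:**
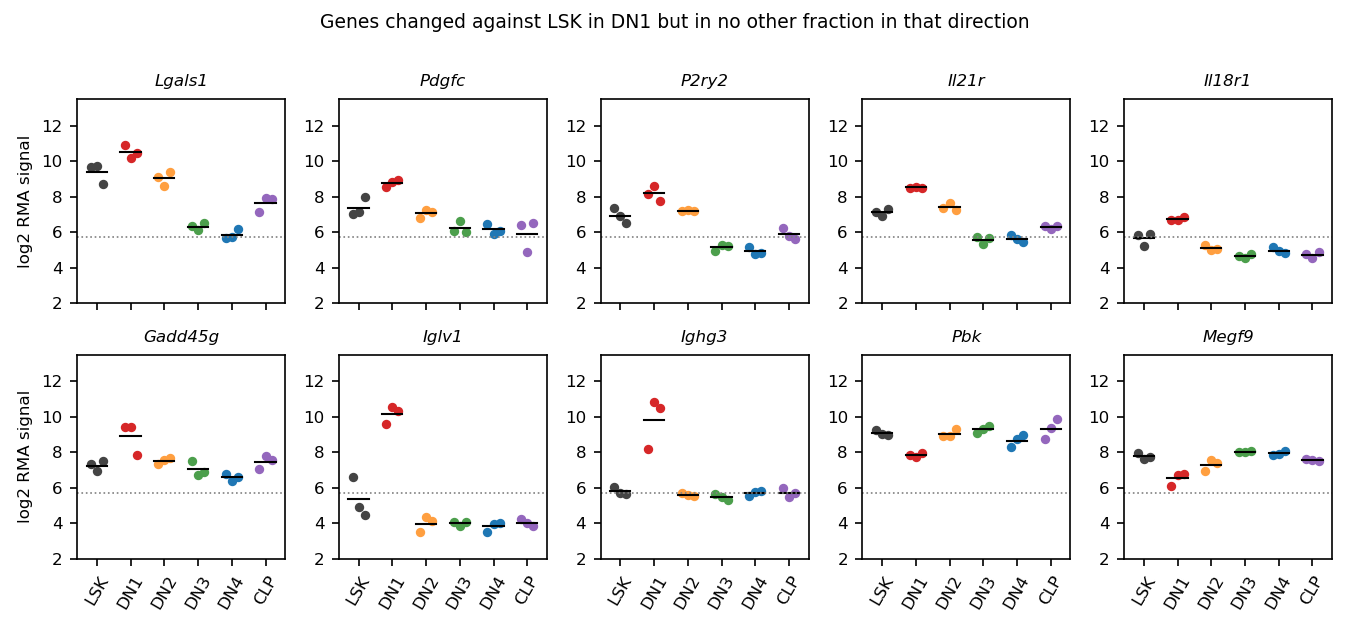
Log2 signal of 10 genes that changed against LSK in DN1 and in no other fraction in that direction. Values are shown for each of the 18 arrays by group, with a bar for the mean and a dotted line for background at 5.71. The DN1 dots of Lgals1, Pdgfc, P2ry2, Il21r, Il18r1, Gadd45g, Iglv1 and Ighg3 lie above all other dots, and those of Pbk and Megf9 below.

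The strongest changes confined by the rule to DN1 were immunoglobulin genes, Iglv1, Igkv15-103 and Ighg3, which B lineage cells rearrange and transcribe. Iglv1 stood at 9.61, 10.54 and 10.32 in DN1, at 6.60, 4.94 and 4.49 in LSK and at 3.48 to 4.34 in the other fractions. Ighg3, a heavy chain constant gene, was at 8.19, 10.84 and 10.47 in DN1 and at 6.02, 5.72 and 5.64 in LSK. For Igkv15-103, LSK replicate 2 at 9.97 overlapped with DN1 (9.16, 10.96 and 11.02). A wider list of 22 immunoglobulin genes and Jchain was chosen after their values were seen. Of its genes 19 were above the other fractions (3.11% of all genes) and 3 above LSK (7.45%). The mean level of the list per array was 7.17 to 7.51 in DN1, 5.17 to 7.09 in LSK and 4.45 to 5.08 in the others. Jchain, which joins secreted antibody, was at 8.64, 8.77 and 8.40 in DN1 and at 9.06, 7.87 and 6.52 in LSK. Immunoglobulin segments are near-identical copies whose probe sets can share signal.

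Markers of B cells and plasma cells were measured beside these genes. Of 21 markers 1 was higher (7.45% of all genes) and 2 were lower (12.3%) in DN1 than in LSK. Against the other fractions 1 was lower (3.78% of all genes) and 3 were higher (3.11%), namely Jchain, Xbp1 and Prdm1. The call of Prdm1 was lost without DN1 replicate 2 (0.43, adjusted p = 0.192) or DN1 replicate 3 (0.53, adjusted p = 0.123), among other runs. Their mean level per array was 5.86 to 6.10 in DN1, 5.79 to 6.47 in LSK and 5.55 to 5.75 in the other fractions. In DN1 10 of the 21 were at background, among them the surface antigen Ms4a1 (3.87), the receptor chains Cd79a (5.56) and Cd79b (5.23) and the B lineage factor Ebf1 (4.96). The factor Pax5 (5.82) and the plasma cell genes Mzb1 (6.08) and Derl3 (5.93) were at 6.08 or lower, close to background. Xbp1, high in plasma cells, was the stress gene described above with an intermediate level. The part of B lineage cells in the immunoglobulin signal was not tested.

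Receptors for cytokines were higher in DN1 than in the other fractions in 9 of 26 cases (3.11% of all genes) and lower in 3 (3.78%). Against LSK 10 were higher (7.45% of all genes) and 10 lower (12.3%). Il4ra, the interleukin 4 receptor, stood at 10.82, 10.89 and 10.86 in LSK, 9.67, 9.86 and 9.39 in DN1 and 5.68 to 8.48 elsewhere, so DN1 was 1.21 below LSK and 2.90 above the other fractions (adjusted p = 3.92e-09). Il6ra, the interleukin 6 receptor, held a middle place too, with means of 9.17, 7.10 and 5.92 in LSK, DN1 and the other fractions. Il7r, used in the gate, was at 9.67, 9.71 and 9.88 in DN1, 6.84, 5.64 and 5.82 in LSK and 6.97 to 8.97 elsewhere. Il18rap (1.11), the second chain of the interleukin 18 receptor, Il2rb (0.98) and Il6st (0.71) were higher in DN1 than in the other fractions. Il2ra (-1.17), Il15ra (-1.11) and Il9r (-0.90) were lower.

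Cytoskeleton, S100, annexin and galectin genes gave the most calls above the other fractions of the lists without a stress role, apart from immunoglobulin genes. Of 20 measured genes 10 were higher (3.11% of all genes) and none was lower (3.78%), with a median of 0.53. Of the 20, 9 had DN1 arrays above all 12 others (1.96% of all genes). Against LSK 6 were higher (7.45% of all genes) and 7 lower (12.3%). Vim, vimentin, rose from 9.06, 8.86 and 9.13 in LSK to 10.65, 10.93 and 10.92 in DN1 and stood at 7.75 to 10.34 elsewhere, with DN2 highest. S100a4, a motility-linked S100 protein, stood at 11.14, 11.01 and 11.37 in LSK, 9.44, 8.83 and 8.43 in DN1 and 6.0 to 7.81 elsewhere. Ifitm3 (1.93), Emp3 (1.67), S100a10 (1.43) and Anxa2 (1.37) were also higher than in the other fractions. Members thus differed in their place against LSK: Vim and Lgals1 above it, S100a6 at it and S100a4 below it.

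Genes with the largest differences from LSK were of several kinds. The lists of T cell receptor genes and stem cell factors placed DN1 within the T lineage and outside the stem compartment. Moxd1, a monooxygenase-like enzyme, and Pcsk1, a prohormone convertase, were at 11.66, 11.70 and 11.72 and at 10.61, 10.27 and 10.54 in DN1, with LSK at background. DN2 shared both at means of 9.96 and 8.58, and DN3 and DN4 were at background. Gzma, granzyme A, had means of 11.72 in DN1 and 4.38 in LSK and lay 0.10 above the other fractions (adjusted p = 0.849). Of 17 genes of the CD3 and T cell receptor complex 16 rose against LSK (7.45% of all genes), with a median of 3.51. Of 21 stem cell transcription factors 19 fell (12.3% of all genes), with a median of -1.96. Adgrl4, an adhesion receptor of endothelium and stem cells, fell the most, from 10.54, 10.66 and 10.78 to 3.36, 3.71 and 4.09.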

How the data were processed

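RNA of sorted cells was hybridised to Affymetrix arrays after RNeasy Micro extraction and WT Pico amplification, per the labels' protocols. The authors deposited log2 signals for each probe set, summarised by RMA with oligo, per the submitters' processing notes (build and versions are not given in the sources used here), and no further scaling was applied. Of 41345 probe sets, 23521 carry 1 gene symbol, 1814 several and 16010 none in the platform annotation; the last 2 kinds were left out. The brightest probe set by the mean over 18 arrays stood for each of 22180 genes (1082 had several); 23328 probe sets matched RefSeq by Entrez ID, and 0 symbols changed. Precision is limited by 3 arrays per group.

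DN1 was tested against LSK over 6 arrays and against the mean of CLP, DN2, DN3 and DN4 over the 15 lymphoma arrays with limma 3.58.1 (R 4.3.3; two-sided moderated test from lmFit and eBayes, adjusted by Benjamini-Hochberg over all genes), checked on simulated data. Each other fraction was tested against LSK over 6 arrays. SE is the limma standard error. Tables and figures used Python 3.11.15 with pandas 2.3.3 and matplotlib 3.10.9. Samples, the 28 gene lists and the rules were chosen with earlier results of these data known. Named genes are the 12 largest rises and falls against LSK, the 10 largest each way against the other fractions, the 15 largest of each set, stress list members, up to 6 per other list and label checks; antigen receptor genes fall outside that rule and were added after their values were seen. A gene among those rules' picks is not reported here. Array numbers were not taken to pair samples: same-number correlations of deviations with DN1 were 0.06, 0.03 and 0.13 for LSK, -0.19 to -0.02 for CLP and 0.04 to 0.33 for DN2. For DN3 (0.12, 0.21 and 0.23) and DN4 (0.12, 0.12 and 0.14) all were over 0.1. The highest correlations with other numbers were -0.02, -0.01 and -0.09 for DN3 and 0.04, 0.12 and 0.06 for DN4. For DN2 they were 0.08, -0.14 and 0.07, and for CLP 0.13, 0.14 and 0.05. Whether arrays of the same number share a tumour was not tested. The main test against the other fractions took the 15 lymphoma arrays as independent. Alternatives were normalization, filter, probe set choice, prior, replicate block, X and Y genes, model and leaving out arrays.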

Additional observations from a re-analysis of the deposited data

Results flagged for a closer look

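The step from LSK differed between DN1 and the other lymphoma fractions in 1528 genes by the direct test of DN1 against the mean of the other 4. In 16 of these DN1 and at least 3 other fractions were called on opposite sides of LSK, with DN1 above in 11 and below in 5. For Iglv1, D130040H23Rik and Il18r1, LSK and the other fractions were at background, so a place below LSK is not told apart from background. Besides Iglv1 and D130040H23Rik, the 16 included the following, with DN1 minus the other fractions.

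DN1 was called above LSK, and CLP, DN3 and DN4 below it, for Lgals1 (3.32), Ly6c2 (2.80), Atp8b4 (2.65), Pdgfc (2.45), P2ry2 (2.39), Il21r (2.30), Slc22a23 (2.05), Il18r1 (1.89) and Mgll (1.22). DN2 was called below LSK for Il18r1 alone of these 9, with both groups at background. The DN2 means of P2ry2 (7.21) and Il21r (7.41) lay above those of LSK (6.92 and 7.13). Ly6c2, a Ly6 surface protein of monocytes and some T cells, stood at 10.79, 10.53 and 10.47 in DN1, at 9.91, 10.32 and 9.45 in LSK and at a mean of 7.80 in the other fractions. Its call against LSK was lost in the model of all 18 arrays (0.70, adjusted p = 0.125) and without LSK replicate 1 (0.71, adjusted p = 0.0878), LSK replicate 3 (0.48, adjusted p = 0.119), DN1 replicate 1 (0.61, adjusted p = 0.123) or DN1 replicate 2 (0.74, adjusted p = 0.0758). Mgll, a lipase that breaks down monoacylglycerols, had means of 7.51 in DN1, 6.82 in LSK and 6.30 in the others.

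DN1 was called below LSK, and CLP, DN3 and DN4 above it, for Pde9a (-3.49), Ttyh2 (-2.67), Naip5 (-2.27) and Slc16a10 (-1.93). DN2 was not called above LSK for these, and its means of Pde9a, Naip5 (6.93 against 7.02) and Slc16a10 (6.85 against 7.27) lay below those of LSK. Pde9a, a phosphodiesterase of cyclic GMP, had means of 5.06 in DN1, 5.41 in DN2, 6.60 in LSK and 9.39 in DN3, and DN1 and DN2 were at background. Ttyh2, a chloride channel family member, separated DN1 (6.67) from DN2 (7.68), which was near LSK (7.66).

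Probe sets without a single gene symbol, left out of the tests above, also carried signal: 977 of 17824 were called between DN1 and LSK, 644 higher and 333 lower in DN1.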

How the results depend on the processing

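The count against LSK ran from 3460 to 4270 genes and that against the other fractions from 1104 to 1987 when single arrays were left out. Of 212 named genes called against LSK, 23 lost the call in some such run and 12 under another setting, and of 117 called against the other fractions 17 and 2 did; none of these 329 differences changed sign, and 93 of 293 named differences that were not called did so in some setting. Genes higher or lower than LSK in DN1 alone numbered 19 to 34 with single arrays left out. They numbered 32 without LSK replicate 1 (17 shared with the 20) and 34 without DN1 replicate 2 (19 shared). At a size of 1.5 instead of 1 there were 4. Genes at the LSK level in DN1 numbered 96 to 110 with arrays left out, 48 within 0.3 of LSK, 23 without CLP (all 3 remaining fractions then had to leave LSK) and 21 where all 4 others had to. The replicate block, for numbers that were not taken to pair the samples, gave 4560 genes against LSK, 1753 against the other fractions, 22 in DN1 alone and 107 at the LSK level. The direct test gave 1584 genes without DN2, an alternative chosen after seeing the data. Groups of 3 arrays and background signal limit small differences.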

Other observations

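Beside the counts below, 7.45% of all genes were above and 12.3% below LSK in DN1. Against the other fractions these shares were 3.11% and 3.78%. Of 20 stem and progenitor surface genes 14 were lower in DN1 than in LSK and 2 higher, and 5 were above the other fractions and 1 below. Eng, endoglin, and Itgb3, the integrin beta 3 chain, fell by 2.40 and 3.63 against LSK and were 1.12 and 0.88 above the other fractions. Slamf1, a SLAM family receptor, was 3.23 above LSK and 0.75 above the other fractions. Of 22 glycolysis and hypoxia genes 5 were above and 7 below LSK. Against the other fractions 6 were above, among them the phosphofructokinase Pfkp (1.03) and the glucose transporter Slc2a1 (0.75), and 2 were below, Ndrg1 (-1.49), a hypoxia-linked gene, and the glucose transporter Slc2a3 (-0.86). Of 25 T lineage transcription factors 12 were above and 10 below LSK, and 3 were above and 4 below the other fractions. Among them Runx3 (0.97) was above the other fractions and Lef1 (-1.03), an effector of Wnt and Notch stage genes, below, and the list median against them was -0.05.

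Of 8 MHC class II genes 5 were below LSK (12.3% of all genes) and 1 above (7.45%). Against the other fractions 4 were above (3.11% of all genes) and 1 below (3.78%). H2-Aa and H2-Ab1 were both 1.91 below LSK in DN1 and 1.19 and 1.80 above the other fractions. H2-Oa was the exception in both counts, 1.72 above LSK and 0.90 below the other fractions. The call of H2-DMa against the other fractions (0.45) was lost without any 1 DN1 array and without DN2 replicate 1 or 2, DN3 replicate 2 or 3 or DN4 replicate 3, with 0.42 and an adjusted p of 0.141 without DN1 replicate 2. That of H2-DMb1 against LSK (-0.48) was lost with the replicate block (adjusted p = 0.0605) and without any 1 LSK array, DN1 replicate 1 or DN1 replicate 2. Of 15 interferon response genes 3 were above and 3 below the other fractions. Ifi204, an interferon-induced DNA sensor, stood at 7.43, 6.85 and 6.15 in DN1, at 3.62, 4.30 and 2.94 in LSK and at a mean of 9.46 in the other fractions, 2.65 above DN1. Of 28 genes linked to NPM-ALK or STAT3, 5 were above and 8 below LSK, and 6 above and 1 below the other fractions. Tnfrsf8, which encodes CD30, was 4.63 above LSK and 0.24 below the other fractions (not called). Il22, a STAT3-linked cytokine, was 1.83 above LSK and 1.65 above the other fractions. Mrc1, the mannose receptor of macrophages, stood at 7.93, 7.48 and 8.19 in DN1 and 7.47 on average in DN2, with background in LSK, CLP, DN3 and DN4. The macrophage marker Csf1r was at background in DN1 (5.62). Of 19 macrophage and monocyte markers 4 were above the other fractions and 0 below. Against LSK 3 of them were above and 7 below, and 11 were at background in DN1. Itga2, an integrin chain of NK cells and some T cells, was at 8.25, 8.51 and 8.08 in DN1 and at most 6.97 elsewhere in the lymphomas. The NK receptor genes Ncr1 and Klrb1c differed by 0.11 and 0.06 from LSK, and neither was called. Of 20 NK and cytotoxic markers 2 were above the other fractions and 0 below, and 3 were above and 7 below LSK.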
